A study of Canis lupus familiaris with 15 samples.

Results

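MX1, OAS2, OASL and TRIM34 are interferon-induced genes whose products act against viruses, and they were followed here across 15 samples from 5 dogs with lymphoma. They were chosen by name, as the canine genes to which RefSeq identifiers on the array assign a probe. These 4 genes were read by 6 of the 2186 probes that could be given a symbol, and they are 4 of the 1357 genes named in this way. MX1 and OAS2 had 2 probes each, OASL and TRIM34 had 1 each, and for genes with several probes the brighter probe was used.

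Each sample was labelled with Cy3 and hybridised to its own canine Agilent array. Skin biopsies of MalcolmX and Rosco served as control tissue (2 samples). Drug-resistant lymphoma was biopsied in MalcolmX, Jake, Rosco and Dog Y (4 samples), although the labels of the Rosco and Dog Y biopsies also place them before treatment. Thai gave 1 biopsy of a drug-sensitive lymphoma, which the sample title calls naive. MalcolmX gave 1 fine needle aspirate taken after metformin, a diabetes drug. All other samples were tumours of Rosco, which makes 9 of the 15 arrays samples of that dog. Rosco was aspirated after failing chemotherapy, named CHOP in the sample title, and before metformin (1). Further aspirates were taken in remission on metformin (1) and after relapse on metformin (3). A further aspirate of Rosco is labelled a second resistant tumour, and 1 tumour sample was collected after death. The failed-chemotherapy and remission samples are called the earlier aspirates below. The 3 relapse aspirates come from 1 dog, so tests on them carry no spread between dogs.

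Interferons are secreted when cells sense foreign nucleic acid, and they bind receptors whose kinases, among them JAK1, activate STAT transcription factors. These switch on a broad set of antiviral genes in nearly every cell type, and lymphoid and myeloid cells can respond strongly. MX1 is a dynamin-like GTPase that traps viral ribonucleoprotein. OAS2 is an oligoadenylate synthetase, which answers double-stranded RNA by making short adenylate chains. OASL belongs to the same family and carries ubiquitin-like domains. TRIM34 is a tripartite-motif protein related to the retroviral restriction factor TRIM5. In the RefSeq annotation of the UU_Cfam_GSD_1.0 assembly MX1 lies between MX2 and TMPRSS2, OAS2 lies next to OAS3 and OAS1, and TRIM34 lies between TRIM6 and TRIM22, while OASL lies apart from the other OAS genes.

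Levels are log2 processed signals from which the 75th percentile of each array was subtracted, and 0 marks a bright probe and a step of 1 is a doubling of signal. A level describes 1 probe and is compared between arrays, never between genes. The 75th percentile signal ran from 367.5 to 1241 over the arrays, between 66.7% and 75.9% of probes were well above background, and the dimmest such probe of an array lay between −6.86 and −5.50. The number of arrays limits the precision. MX1, OAS2 and OASL were well above background on all 15 arrays and TRIM34 on 11.

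The first biopsy of Rosco and the second resistant aspirate of Rosco stood apart from the other tumours. MS4A1, the gene of the B cell antigen CD20, was at −7.16 and −6.73 on these arrays and not well above background. On the other 11 tumour arrays it lay between 0.38 and 3.53. CA6, a carbonic anhydrase secreted by glands, was at 8.59 and 8.99 on these arrays and at 1.45 or lower on all others. Comparisons and correlations that hold either array are therefore given with and without it. In skin, MS4A1 was at 0.84 in MalcolmX and at −8.04 in Rosco, and the summed level of 8 keratinocyte genes was 7.67 and 10.3, against 4.07 or lower in every tumour. A summed level is the log2 of the summed signals of a list, so its brightest genes weigh most. In bulk samples such as these, fewer cells of a type and less RNA per cell cannot be told apart.

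Across the 15 arrays MX1 spanned 5.50 log2 units, from 0.43 in Rosco skin to 5.94 in the Dog Y biopsy. It was highest in the Dog Y biopsy, in the relapse aspirates (5.49, 5.59 and 5.74) and in the post-mortem tumour (5.54). The Thai, Jake and MalcolmX biopsies followed at 4.99, 4.81 and 4.33, and the MalcolmX aspirate after metformin at 3.95. Then came a gap of 1.49, below which lay all remaining arrays. These were the remission aspirate at 2.46, MalcolmX skin at 2.07, the Rosco biopsy at 1.71, the second resistant aspirate at 1.66, the failed-chemotherapy aspirate at 1.59 and Rosco skin. The resistant biopsies (4.20 ± 1.79, SD, n = 4) ranged over most of this order, so their mean does not differ beyond this spread from the Thai biopsy above or the MalcolmX aspirate below. The relapse aspirates had the smallest spread (5.61 ± 0.12, SD, n = 3), and the post-mortem tumour lay inside it.

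OAS2 followed a similar order over a smaller span of 3.79 log2 units. It was highest in the Jake biopsy (4.85), the Thai biopsy (4.61) and the post-mortem tumour (4.20), followed by the relapse aspirates (3.66, 3.64 and 4.12). The Dog Y and MalcolmX biopsies were at 3.72 and 3.57 and the MalcolmX aspirate at 2.94. The low end held the same samples as for MX1, with the Rosco biopsy at 1.94, MalcolmX skin at 1.83, the remission aspirate at 1.72, the second resistant aspirate at 1.46, Rosco skin at 1.34 and the failed-chemotherapy aspirate at 1.05. The resistant biopsies averaged 3.52 ± 1.20 (SD, n = 4), a spread that takes in the relapse aspirates (3.81 ± 0.27, SD, n = 3) and the post-mortem and Thai tumours. The 5 spots of the other OAS2 probe had an SD between 0.02 and 0.11 within an array, which covers spot noise only.

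OASL divided the samples in another way. It was lowest in both skins (−3.76 in MalcolmX and −4.43 in Rosco), in the Rosco biopsy (−4.01) and in the second resistant aspirate (−3.82). All other arrays lay at −1.96 or above. The Jake biopsy (0.65), the Thai biopsy (0.34), the remission aspirate (0.12) and the failed-chemotherapy aspirate (−0.33) were at the top, so both earlier aspirates of Rosco moved from the low end of the MX1 order to the high end of this one. The relapse aspirates were at −1.96, −1.33 and −0.41 and the post-mortem tumour at −1.70. The Dog Y and MalcolmX biopsies and the MalcolmX aspirate, at −0.82, −0.94 and −1.12, fell within the range of the relapse aspirates.

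TRIM34 was not well above background on the same 4 arrays, with readings of −7.56 and −6.28 in the skins, −6.91 in the Rosco biopsy and −6.33 in the second resistant aspirate. Readings that dim have no order among themselves. The 2 earlier aspirates held the highest levels of the series, −1.35 in remission and −1.51 after failed chemotherapy. The Thai biopsy (−2.33), the relapse aspirates (−2.45, −2.47 and −2.78), and the Jake and Dog Y biopsies (−2.83 and −2.87) came next. The MalcolmX biopsy (−3.32), the post-mortem tumour (−3.50) and the MalcolmX aspirate (−3.56) were the dimmest of the 11 arrays with a measured level.

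**Figure D1:**
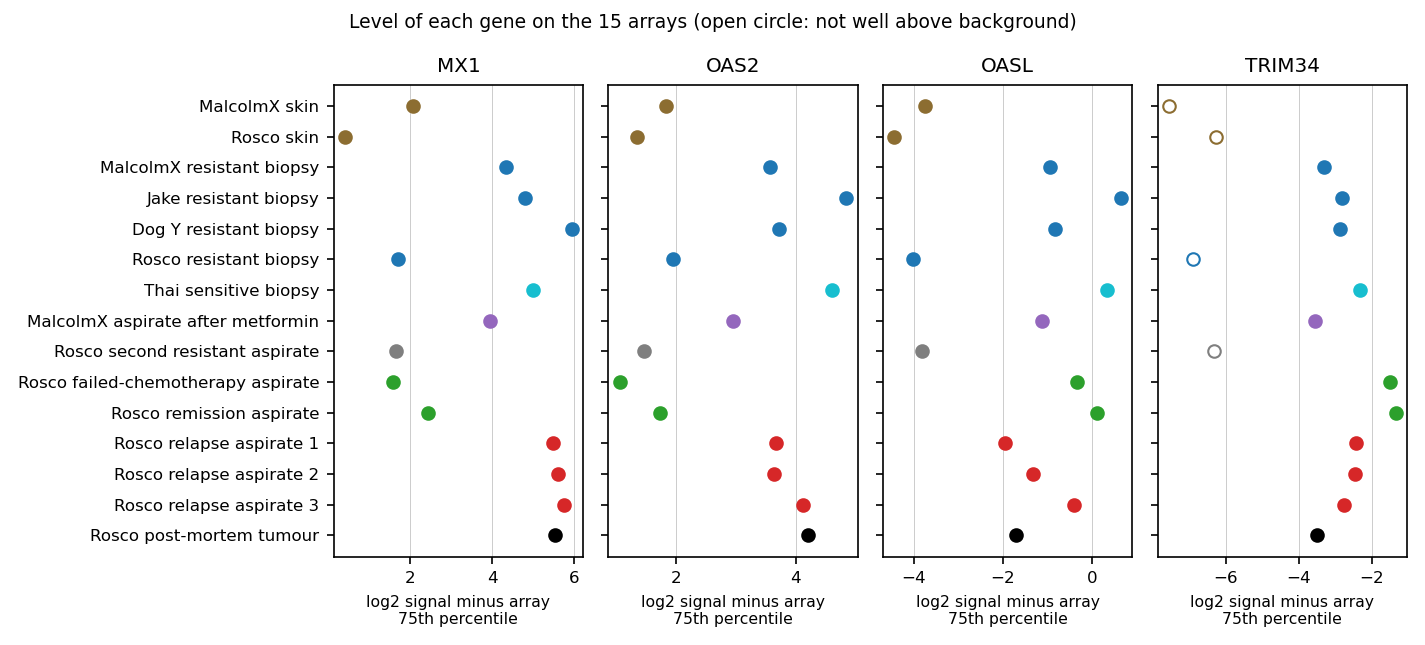
Level of MX1, OAS2, OASL and TRIM34 on each of the 15 arrays, as log2 processed signal minus the 75th percentile of the array; each point is 1 array, coloured by group, and open circles are not well above background. MX1 and OAS2 are low in both earlier aspirates (1.59 and 2.46 for MX1) and high in the relapse aspirates (5.49 to 5.74), whereas TRIM34 is highest in the 2 earlier aspirates.

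How alike the 4 genes were depended on the arrays taken. These correlations are descriptions without a test, because 9 of the arrays share a dog and several share a slide. Over the 15 arrays Pearson's r was highest between MX1 and OAS2 (0.91, Spearman's rho 0.82) and between OASL and TRIM34 (0.90, rho 0.74). It was 0.60 for MX1 with OASL, 0.58 for MX1 with TRIM34, 0.59 for OAS2 with OASL and 0.45 for OAS2 with TRIM34. Without the first biopsy and the second resistant aspirate of Rosco, over 13 arrays, r was 0.90 for MX1 with OAS2 and 0.85 for OASL with TRIM34, and 0.47, 0.44, 0.48 and 0.30 for the others in the same order. The same order of genes was not seen in every dog. On the 9 arrays of Rosco r was 0.97 for MX1 with OAS2 and 0.95 for OASL with TRIM34, and between 0.32 and 0.51 for the others. On the 6 arrays of the other dogs MX1 with OAS2 had the lowest r, at 0.79, OASL with TRIM34 had 0.94, and the others had 0.81, 0.91, 0.97 and 0.87.

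The values for TRIM34 include 4 readings that were not well above background and have no order. Over the 11 arrays where TRIM34 was measured, r with OASL was 0.43 (rho 0.42), with MX1 −0.60 (rho −0.28) and with OAS2 −0.61 (rho −0.25). The high r of TRIM34 with OASL over all arrays thus rested largely on the arrays where TRIM34 was not measured. Among the 11 arrays the failed-chemotherapy and remission aspirates of Rosco had the highest TRIM34 and the lowest MX1 and OAS2. The negative r values of TRIM34 with MX1 and OAS2 include these aspirates and were not computed without them. A difference of 2 genes within an array does not depend on the scaling between arrays. MX1 minus OASL was 1.91 in the failed-chemotherapy and 2.34 in the remission aspirate, and on the other 13 arrays it lay between 4.16 and 7.45. MX1 minus TRIM34 was 3.1 and 3.81 in the earlier aspirates, and between 7.32 and 9.04 on the other 9 arrays where both genes were well above background. Both differences were thus smallest in the earlier aspirates of Rosco.

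**Figure D2:**
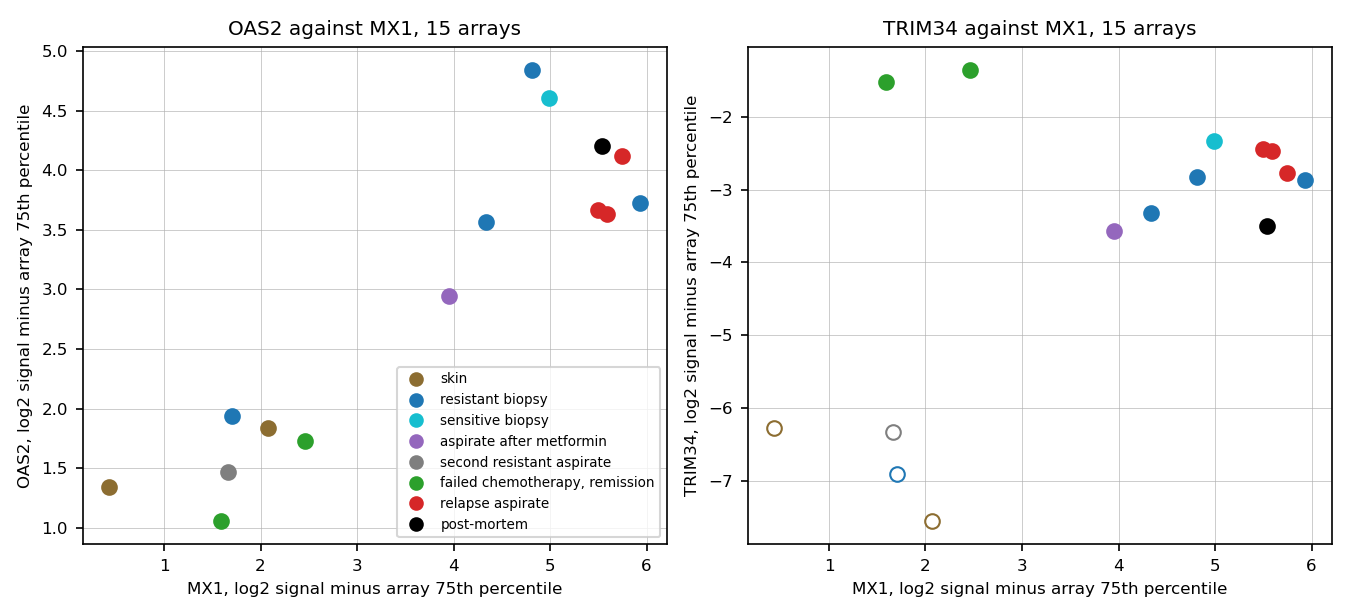
OAS2 (left) and TRIM34 (right) against MX1, each axis the log2 signal minus the 75th percentile of the array; points are the 15 arrays coloured by group, and open circles are TRIM34 readings not well above background. OAS2 rises with MX1 (r = 0.91), while the failed-chemotherapy and remission aspirates lie at the top left of the TRIM34 panel, away from the other 9 arrays with a measured TRIM34 level.

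The relapse aspirates of Rosco were compared with the earlier aspirates to ask how the tumour after relapse on metformin differed from the samples before. MX1 and OAS2 rose in the relapse aspirates, TRIM34 fell, and the lower signal of OASL missed the threshold. Broad change surrounded them, since 33.7% of the 25366 targets tested were called at an adjusted p under 0.05 (17.4% higher and 16.3% lower), and the median target differed by −0.08. The earlier and relapse aspirates did not overlap for any of the 4 genes, but 28.9% of all targets were likewise separated upwards and 31.4% downwards, so the separation is no result about these genes in particular. Other ways of scaling moved the median target between −0.19 and 0.11 and the share of higher calls from 3793 of 8691 to 5566 of 8908, against 4408 of 8551 here.

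MX1 rose by 3.59 log2 units (SE 0.29, limma adjusted p = 0.000686), a 12.01-fold higher signal. The relapse aspirates averaged 5.61 ± 0.12 (SD, n = 3) and the earlier aspirates 2.02 ± 0.62 (SD, n = 2). Every relapse aspirate exceeded both earlier ones, by at least 3.03 log2 units. The other MX1 probe gave 3.85 (limma adjusted p over probes = 0.00191). OAS2 rose by 2.42 (SE 0.28, limma adjusted p = 0.00194), or 5.34-fold, from 1.39 ± 0.48 (SD, n = 2) to 3.81 ± 0.27 (SD, n = 3). Its other probe gave 2.35 (limma adjusted p over probes = 0.00284).

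TRIM34 fell by 1.13 (SE 0.19, limma adjusted p = 0.00720), a 2.19-fold lower signal, from −1.43 ± 0.12 (SD, n = 2) to −2.56 ± 0.18 (SD, n = 3). OASL differed by −1.13 as well, but its relapse aspirates ranged over 1.54 log2 units and the adjusted p by limma was 0.107 (SE 0.45). The gap between relapse aspirate 3 (−0.41) and the failed-chemotherapy aspirate (−0.33) was 0.085. Without relapse aspirate 3 the OASL difference was −1.54 and passed (limma adjusted p = 0.0175). Without the remission aspirate TRIM34 missed the threshold (−1.05, limma adjusted p = 0.0648).

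Both groups were spread over the same slides. Within slide 3, which held the failed-chemotherapy aspirate and relapse aspirate 1, the differences were 3.91 for MX1, 2.61 for OAS2, −1.63 for OASL and −0.93 for TRIM34. Within slide 4, which held the remission aspirate and relapse aspirates 2 and 3, they were 3.21, 2.15, −0.99 and −1.27 in that order, and TRIM34 no longer passed (limma adjusted p = 0.121). With slide as a block OASL passed at −1.26 (limma adjusted p = 0.0452). When the spread was estimated from all 15 arrays none of the 4 passed, with limma adjusted p of 0.0843 for MX1, 0.0833 for OAS2, 0.635 for OASL and 0.623 for TRIM34.

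With the second resistant aspirate added to the earlier ones, MX1 (3.71) and OAS2 (2.39) kept their direction and passed (limma adjusted p of 0.00365 and 0.00858). OASL turned to 0.11 and TRIM34 to 0.50, both short of the threshold. MX1 and OAS2 therefore rose with or without this aspirate, while OASL and TRIM34 kept their direction only without it. The labels do not say whether the second resistant aspirate was taken before the relapse aspirates. It is also an array that stood apart with little B cell signal, and its TRIM34 reading was not well above background.

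The cell type genes measured on the same arrays moved as well. Of 8 named T and NK cell genes 7 were tested and 5 were lower in the relapse aspirates. Their summed level was 4.54 and 3.97 in the earlier aspirates and between 0.86 and 1.76 at relapse. CD8A, the coreceptor of cytotoxic T cells, was at 3.21 and 2.89 in the earlier aspirates and between −3.97 and −3.04 at relapse, while IFNG was not well above background in the remission aspirate or in any relapse aspirate. Of 3 named B cell genes, MS4A1 and CD40 were higher and BCL6 lower, and their summed level went from a range of 2.07 to 2.47 up to 4.24 to 4.88. All 5 named genes of dividing cells were higher, with a summed level of 3.56 to 4.23 before and 5.62 to 5.73 at relapse. Among 5 monocyte and macrophage genes 1 was higher, and their summed level was 2.71 to 2.83 before and 3.75 to 4.07 at relapse. The brightest of them at relapse, CYBB, was at 1.40 and 1.28 before and between 3.21 and 3.63 at relapse. The mean level of the 5 genes overlapped, at −1.39 to −0.82 before and −0.94 to −0.27 at relapse. All 5 named genes of the dendritic cell list were tested, of which 3 were higher (TCF4, TLR7 and TLR9) and 1 lower (FLT3). FLT3 was at −2.06 and −2.32 before and between −3.69 and −3.37 at relapse, and CD1C was not called. The summed level of the 5 genes was 0.47 to 0.57 before and 2.05 to 2.34 at relapse, where TCF4, TLR7 and TLR9 weighed most. Of 6 neutrophil genes 1 was higher and 2 were lower, and their summed level was 2.87 to 4.58 before and 0.31 to 2.62 at relapse. The part of these shifts in the differences of the antiviral and other interferon pathway genes was not tested.

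The interferon pathway list, which includes the 4 genes, moved in both directions too. Of 147 listed genes 33 carried a symbol and 29 were tested, of which 6 rose, 7 fell and 16 were not called. With the 4 genes left out, 25 were tested, of which 4 rose, 6 fell and 15 were not called. Of all targets tested, 17.4% were called higher and 16.3% lower. The median difference of the list was −0.25 with or without the 4 genes, against −0.08 for all targets. Among the 9 antiviral effectors, MX1, OAS2 and EIF2AK2 rose, TRIM34 and OAS3 fell, and the others, among them OASL, OAS1 and TNFSF10, were not called. EIF2AK2, the kinase that halts translation on sensing double-stranded RNA, rose by 2.25 (SE 0.23, limma adjusted p = 0.00136), from −3.13 ± 0.39 (SD, n = 2) to −0.87 ± 0.14 (SD, n = 3). It also passed with the spread of all 15 arrays (limma adjusted p = 0.00355), and among the settings run it missed only with the second resistant aspirate added (1.62, limma adjusted p = 0.120).

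The oligoadenylate synthetase family was split. OAS2 rose, while OAS3, its neighbour in the genome, fell by 1.15 (SE 0.17, limma adjusted p = 0.00425), and its other probe gave −1.11. OAS3 missed within slide 4 (limma adjusted p = 0.116), with the spread of all arrays (0.550) and with the second resistant aspirate added (−0.30, 0.812). OAS1, which adjoins OAS3, differed by 0.39 (SE 0.37, limma adjusted p = 0.464), and its 2 probes disagreed in sign (0.39 and −0.10). The signal of the family therefore did not move as a unit between these aspirates.

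Upstream of the effectors, the endosomal nucleic acid sensors TLR7 and TLR9 rose by 1.81 (SE 0.18) and 1.59 (SE 0.23), with limma adjusted p of 0.00127 and 0.00387. Both are also among the 5 genes of the dendritic cell list given above. TLR4, the sensor of bacterial lipopolysaccharide, differed by 0.62 and MAVS, the mitochondrial adaptor of cytosolic RNA sensors, by −0.61, both short of the threshold. The receptor kinase JAK1 fell by 0.79 (SE 0.23, limma adjusted p = 0.0410), and missed without relapse aspirate 1 (−0.69) or 3 (−0.75), without the failed-chemotherapy aspirate (−0.97) and without the remission aspirate (−0.62). JAK1 also missed with array medians (−0.60, limma adjusted p = 0.0764), without a filter (0.0711), with the spread of all arrays (0.266), within slide 4 (−0.87, 0.267) and with the second resistant aspirate added (−0.22, 0.807). Within slide 4 TLR7 and TLR9 missed at 1.70 and 1.29 (limma adjusted p of 0.0561 and 0.112), and with the spread of all arrays at a limma adjusted p of 0.327 and 0.461. TLR9 also missed with the second resistant aspirate added (2.27, limma adjusted p = 0.0609). Of the ligands only IFNA7 could be tested, at −0.10 (limma adjusted p = 0.852), and its 2 probes disagreed, so its level is uncertain. IFNB1 was not well above background in any of the 5 aspirates. The feedback inhibitor SOCS3 differed by −0.70 (limma adjusted p = 0.188).

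Among interferon-induced chemokine and antigen presentation genes, 1 of 13 rose and 4 fell. CD274, which encodes the checkpoint ligand PD-L1, rose by 2.57 (SE 0.41, limma adjusted p = 0.00586). The class I genes DLA-79, DLA88 and DLA-64 fell by 2.80, 1.46 and 1.06, and the peptide transporter gene TAP1 fell by 0.83 (limma adjusted p between 0.000405 and 0.0152). CCL5, a chemokine also made by T and NK cells, differed by −1.79 and missed the threshold (SE 0.55, limma adjusted p = 0.0502). Without the remission aspirate CD274 (2.11), DLA-64 (−0.97) and TAP1 (−0.82) missed at a limma adjusted p of 0.0510, 0.0583 and 0.0959. TAP1 also missed without relapse aspirate 1 (−0.88) or the failed-chemotherapy aspirate (−0.85), and it turned to 0.42 with the second resistant aspirate added. In that setting the class I genes missed as well, DLA-79 at −1.53, DLA88 at −0.53 and DLA-64 at −0.27 (limma adjusted p of 0.379, 0.691 and 0.821). Within slide 4 DLA88 (−1.58) and DLA-64 (−1.19) missed at a limma adjusted p of 0.0659 and 0.132. Among the settings other than single arrays left out, TAP1 kept its direction but missed in 2, at −0.89 and −0.83 (limma adjusted p from 0.242 to 0.662). Within slide 3, without a test, CD274 differed by 1.48. CCL5 passed without relapse aspirate 2 (−2.12) or without the remission aspirate (−2.61). Among the settings other than single arrays left out, CCL5 passed in 4 (−1.90 to −1.79, limma adjusted p of 0.0297 to 0.0425) and missed in 8. With the spread of all arrays none of these genes passed. Class I genes are closely related in sequence, so a probe may read more than 1 of them.

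**Figure D3:**
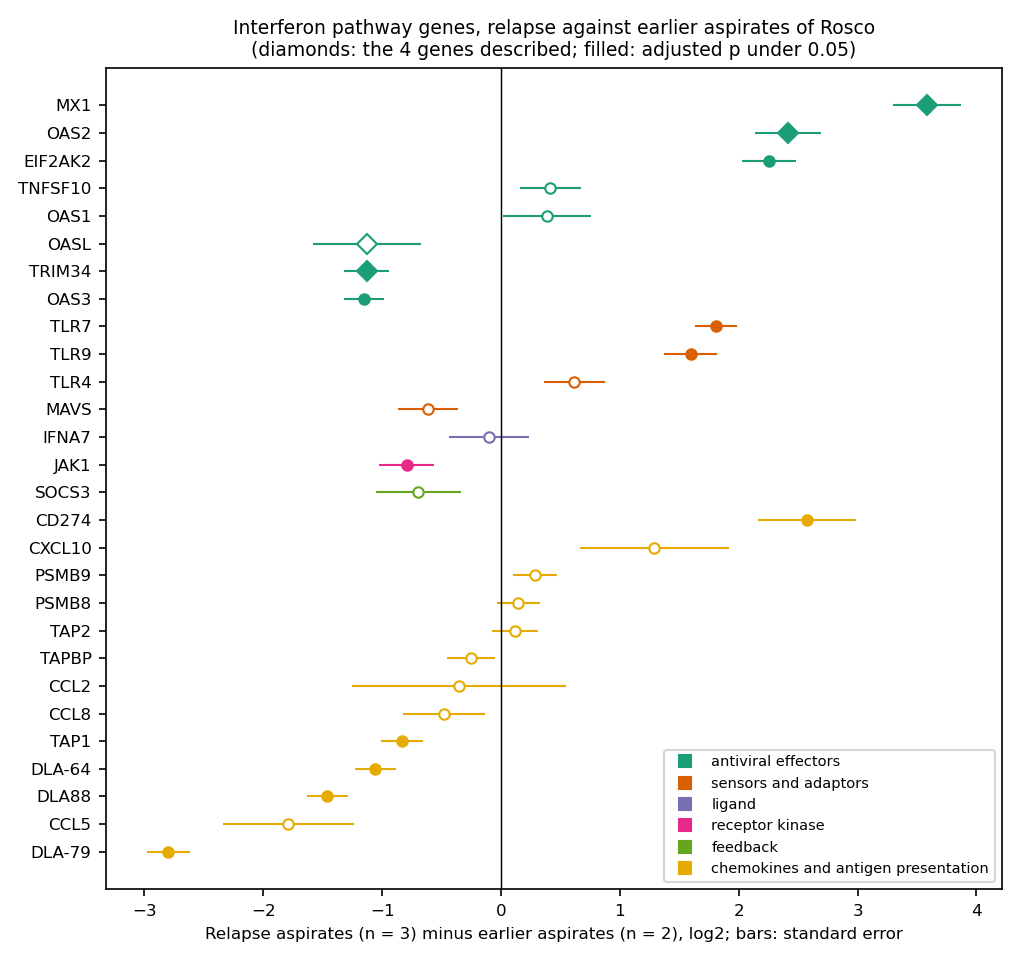
Difference between the 3 relapse aspirates and the 2 earlier aspirates of Rosco for the interferon pathway genes described, in log2 units with the standard error, ordered and coloured by role; filled symbols passed an adjusted p of 0.05 and diamonds are MX1, OAS2, OASL and TRIM34. MX1 (3.59), OAS2 (2.42) and EIF2AK2 (2.25) lie furthest right among the antiviral effectors, and TRIM34 and OAS3 lie left of zero.

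Resistant biopsies were next set against skin, the control tissue of the series. All 4 genes had higher means in the biopsies, but no difference passed the test, and the Rosco biopsy lay at the level of skin. The 3 other biopsies were above both skins for each gene, a separation that 37.3% of all targets showed in those samples. MX1 was 2.95 higher (SE 1.18, limma adjusted p = 0.335), OAS2 1.93 higher (SE 0.78, limma adjusted p = 0.336) and OASL 2.81 higher (SE 1.22, limma adjusted p = 0.344). The biopsies averaged 4.20 ± 1.79, 3.52 ± 1.20 and −1.28 ± 1.96 (SD, n = 4) and the skins 1.25 ± 1.16, 1.59 ± 0.35 and −4.09 ± 0.48 (SD, n = 2). TRIM34 was well above background in 3 of 4 biopsies and in 0 of 2 skins, so it could not be tested here. No fold is given for it, since its true level in the Rosco biopsy may lie below the dim reading there. Only for OAS2 did biopsies and skin not overlap, a separation that 18.1% of the 23921 targets tested showed in the same direction.

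In this comparison 0.431% of targets were called, 2 higher (0.00836%) and 101 lower, so genes higher in the biopsies rarely passed. None of the 28 interferon pathway genes tested was called by limma, and 12 had an unadjusted p under 0.05. Their median was 1.82 higher in the biopsies, against 0.25 for all targets. Besides MX1 and OASL, the largest values in the list were those of the chemokines CXCL10 (3.50, SE 0.83) and CCL5 (2.73, SE 0.43), the synthetase OAS1 (2.76, SE 0.89) and the immunoproteasome subunit PSMB8 (2.55, SE 1.38), none of which passed. TLR9, TLR7 and TLR4 differed by 2.33, 2.04 and 0.50, IFNA7 by 0.97, JAK1 by 0.73 and SOCS3 by 0.11.

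Without the Rosco biopsy MX1, OAS2 and OASL were higher in the 3 remaining biopsies than in the skins, and each passed. MX1 rose by 3.78 (SE 0.70, limma adjusted p = 0.0326), or 13.7-fold. OAS2 rose by 2.46 (SE 0.50, limma adjusted p = 0.0374), or 5.50-fold. OASL rose by 3.72 (SE 0.59, limma adjusted p = 0.0261), or 13.2-fold. TRIM34 could now be tested (limma adjusted p = 0.0183), but both skin readings were not well above background, so the p rests on dim readings. Its size is given only as at least 7.68-fold higher. That bound sets the biopsy mean against the lowest signal well above background on each skin array, or the probe's own reading where higher. Called targets were 12.8% in that fit, 6.14% higher and 6.65% lower. Of 29 interferon pathway genes tested 17 were called higher and 0 lower. They included 7 of 9 antiviral effectors, with EIF2AK2 at 1.84 (SE 0.32, limma adjusted p = 0.0302), OAS1 at 3.34 (SE 0.59, limma adjusted p = 0.0303) and OAS3 at 3.14 (SE 0.74, limma adjusted p = 0.0498), while TNFSF10 was among those not called. OAS3 was well above background in only 1 of the 2 skins. This choice of samples was made after their values were seen, so the calls describe these 3 tumours only.

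**Figure D4:**
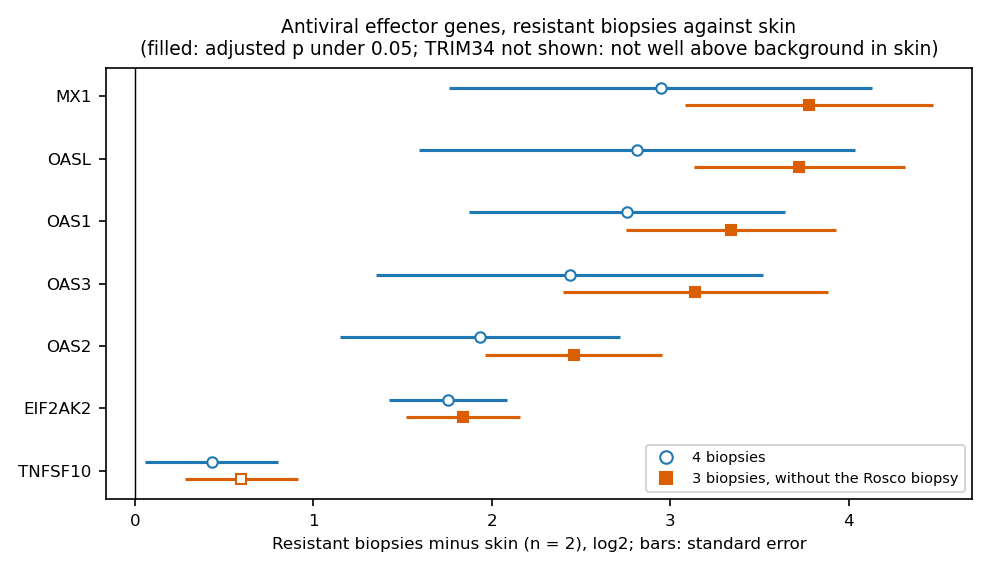
Difference between resistant biopsies and the 2 skin samples for the antiviral effector genes described, in log2 units with the standard error, with all 4 biopsies (circles) and without the Rosco biopsy (squares); filled symbols passed an adjusted p of 0.05, and TRIM34 is left out because it was not well above background in skin. With 4 biopsies no symbol is filled, and without the Rosco biopsy 6 genes pass, MX1 moving from 2.95 to 3.78.

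MalcolmX and Rosco gave both tissues. In MalcolmX the biopsy exceeded the skin by 2.26 for MX1, 1.73 for OAS2 and 2.81 for OASL. In Rosco the same differences were 1.28, 0.60 and 0.42, with the biopsy that stood apart. TRIM34 was well above background only in the MalcolmX biopsy among these 4 arrays. Within slide 1 the mean of the Jake, Rosco and Dog Y biopsies exceeded MalcolmX skin by 2.08, 1.67 and 2.36 for MX1, OAS2 and OASL. Within slide 2 the single MalcolmX biopsy exceeded the single Rosco skin by 3.90, 2.23 and 3.49. Both slides thus set tumour and skin of different dogs side by side. Over all 13 tumour arrays, MX1 and OAS2 exceeded both skins on 10 arrays and OASL and TRIM34 on 11. The Thai biopsy, the Rosco aspirates and the post-mortem tumour were scanned on another day than the skins, so these counts mix scan days. The tumours that did not exceed both skins were all from Rosco. For OASL and TRIM34 they were the first biopsy and the second resistant aspirate, and for MX1 the failed-chemotherapy aspirate as well. For OAS2 they were the failed-chemotherapy, remission and second resistant aspirates.

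Cell type genes also differed between these tissues. Of 8 keratinocyte genes tested 5 were lower in the biopsies, and 0 of 2 B cell genes and 0 of 5 T and NK cell genes were called. The summed level of the B cell genes was −0.59 and 2.75 in the skins and between −0.39 and 5.35 in the biopsies, and that of the T and NK cell genes −1.81 and −1.24 in the skins and between 0.20 and 1.31 in the biopsies. Their part in the difference of the antiviral genes was not tested.

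The drug-sensitive Thai biopsy was set against the 4 resistant biopsies. It was 0.79 higher for MX1, 1.09 for OAS2, 1.62 for OASL and 1.65 for TRIM34, with SEs between 1.09 and 1.70. The TRIM34 value includes the Rosco biopsy, whose reading was not well above background. None of these passed (limma adjusted p = 0.9996 for each), and limma called 0 of 26343 targets (0.0%), with 785 at an unadjusted p under 0.05. Thai lay inside the range of the resistant biopsies for MX1, OAS2 and OASL, and above it for TRIM34, as for 20.5% of all targets. Without the Rosco biopsy the differences were −0.04, 0.56, 0.71 and 0.68. The sensitive and resistant biopsies were scanned on different days, so scan day and group cannot be told apart.

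The tumour taken after death was set against the relapse aspirates of the same dog. MX1 was within the range of the relapse aspirates (a difference of −0.07, SE 0.25), as was OASL (−0.47, SE 0.63). OAS2 was 0.40 higher (SE 0.30) and TRIM34 0.94 lower (SE 0.27), each outside that range, as were 36.8% of all targets upwards and 29.3% downwards, but the limma adjusted p was 0.560 and 0.249. Limma called 0 of 27116 targets (0.0%), with 4128 at an unadjusted p under 0.05.

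Single arrays could be set side by side, without a test, at 3 further points. In MalcolmX the aspirate after metformin was lower than the biopsy before it for all 4 genes, by −0.38 for MX1, −0.63 for OAS2, −0.18 for OASL and −0.24 for TRIM34. These 2 samples also differ in how they were collected. In Rosco the remission aspirate was higher than the failed-chemotherapy aspirate by 0.87, 0.67, 0.44 and 0.17 in the same order. No difference in either pair reached 2-fold. The second resistant aspirate and the first biopsy of Rosco, the arrays with little B cell signal, differed by −0.05 for MX1, −0.48 for OAS2 and 0.19 for OASL.

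The named genes whose levels most resembled each of the 4 were found by Pearson's r over the 15 arrays, among 1059 named genes well above background on at least 8 of them. For MX1 they were NME2 (r = 0.97), TLR7, PABPN1, CCNB3 and PHB (r = 0.95 each). TLR7 had the highest Spearman's rho of the 5 (0.99). For OAS2 they included MX1 (r = 0.91), PRKCD (r = 0.90), TIMM8A (r = 0.89) and the phagocyte oxidase gene CYBB (r = 0.89). For OASL they were TNFRSF14, the class II genes DLA-DMB, DLA-DQA1 and DLA-DMA, and the T cell death ligand FASLG, with r between 0.94 and 0.95. For TRIM34 they were the class II genes HLA-DRB1, DLA-DRA and DLA-DQB1 with TPM3 and UCP2, with r between 0.95 and 0.96. These lists held 3 class II genes each for OASL and TRIM34 and none for MX1 and OAS2. Over 13 arrays, without the first biopsy and the second resistant aspirate of Rosco, the genes named kept an r of 0.94 to 0.97 for MX1, 0.87 to 0.90 for OAS2, 0.91 to 0.93 for OASL and 0.93 to 0.95 for TRIM34, but their ranks changed. Over the 11 arrays where TRIM34 was measured, r of its 5 genes was 0.56 to 0.76. On the same 11 arrays r fell to between 0.61 and 0.71 for the genes of OASL. It was 0.89 to 0.99 for those of MX1 and 0.83 to 0.86 for those of OAS2. The likeness of OASL and TRIM34 to their lists was thus weaker without the skins and the 2 Rosco arrays that stood apart. Over the 15 arrays MX1 stood at rank 1 in the list of OAS2, and OAS2 at rank 22 in that of MX1.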

How the data were processed

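Cy3-labelled RNA of 15 samples was measured on 15 arrays on 4 slides scanned on 2 days. Spot intensity was extracted by the authors with Agilent Feature Extraction 11.0.1.1, per the file headers, with background subtracted within each array and no normalisation between arrays. The deposited flag columns, per the file headers, mark with 0 or 1 whether a spot exceeded background, was saturated or had outlying pixels. The deposited series table holds median signal intensity minus local background on a linear scale, equal to the scanner values within 0.01 in 678300 of 678300 cells.

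Of 43603 probes, 2186 (5.01%) received a symbol through RefSeq identifiers of the array, which gave 36604 targets. Most genes were therefore not named here, and of 147 listed interferon genes 33 carried a symbol. Control spots and 2 to 50 outlying spots per array were left out, and 0 were saturated. Processed intensity was put on the log2 scale minus the 75th percentile of the array, and spots of 1 probe were averaged. Of several probes for a target the brightest on average was taken. Tests were limited to targets that, in at least 1 of the groups, were well above background throughout. Differences were tested with limma 3.58.1 in R 4.3.3, as two-sided tests on the arrays of the groups compared, adjusted by the Benjamini-Hochberg method over all targets, at a threshold of 0.05. Where a group held 1 array, the spread came from the other group alone. The fit was checked on simulated data. The genes, the lists and the comparisons were chosen with earlier results of these data known. Besides the 4 genes, the 3 interferon pathway genes of each role with the largest difference were named, and the 5 genes most like each of the 4. A few genes that these rules took are not reported by name here. Other interferon pathway genes in the text were named after their values were seen. Alternatives covered scaling, background correction, filter, probe choice, slide, dog and each array left out in turn. Correlations over 13 and 11 arrays, and the biopsy comparison without the Rosco biopsy, were chosen after seeing the data. No genome position is given, since the assembly at hand differs from that of the array grid.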

Additional observations from a re-analysis of the deposited data

Results flagged for a closer look

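In the group of 4 resistant biopsies, the Rosco biopsy lay far from the other 3 for TRIM34 and for 4 other interferon pathway genes. Its levels were −6.91 for TRIM34, −2.37 for TLR7, 3.16 for TAP1, 0.33 for TAP2 and −4.14 for CD274, each the lowest of the group by a gap of 0.84 to 0.92 of the whole range. Chance alone gives this for about 1 in 20 groups, and 33 genes were examined in that group. These genes share the same arrays, so they are not independent draws, and the share of all targets that meet the rule was not counted. The biopsy also stood apart for MS4A1 and CA6, so the flag is no result about interferon genes in particular. TRIM34 was not well above background in that biopsy, so its reading there is a bound.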

How the results depend on the processing

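In relapse against earlier aspirates, MX1 and OAS2 kept their direction under every setting run and passed in all that gave a test except 1 model over all 15 arrays. That model gave 3.59 for MX1 (limma adjusted p = 0.0843), 2.42 for OAS2 (0.0833) and −1.13 for TRIM34 (0.623), and its shared spread includes that between dogs. TRIM34 also missed within slide 4 (−1.27) and without the remission aspirate (−1.05), and over single arrays left out it ran from −1.21 to −1.02. OASL ran from −1.54 to −0.77 over single arrays left out, and gave −1.26 with slide as a block and −1.63 within slide 3, where MX1 gave 3.91. With the second resistant aspirate among the earlier ones OASL turned to 0.11, TRIM34 to 0.50, TAP1 to 0.42 and TLR4 to −0.16. IFNA7 turned to 0.092 with array medians, 0.53 with the mean of its probes and 0.22 without relapse aspirate 3 (range −0.29 to 0.22). Called targets numbered 1122 in 1 model, 2497 within slide 4, 2675 with the second resistant aspirate, and 3769 to 9758 with 1 array left out, lowest without the remission aspirate and highest without relapse aspirate 3, against 8551.

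In biopsies against skin, 103 targets were called. Leaving out 1 array gave 5 (without the Jake biopsy) to 3123 (without the Rosco biopsy). The count was 57 with normexp and quantile normalisation, 55 with the deposited table, 65 without a filter, 6 with every array above background, 1260 in 1 model, 32 with slide as a block, 40 within slide 1, 231 with the Thai biopsy added and 3235 with all 13 tumours. Over single arrays left out MX1 ran from 2.13 to 3.78, OAS2 from 1.49 to 2.46 and OASL from 2.17 to 3.72, each passing only without the Rosco biopsy. SOCS3 turned to −0.14 with the percentile of detected probes, −0.10 without the Dog Y biopsy (range −0.10 to 0.25), −0.21 with dog as a fixed block and −0.0019 with the Thai biopsy added.

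For the Thai biopsy, 1 model over all arrays called 33 targets, leaving out single arrays called 0, and MX1 turned to −0.040 without the Rosco biopsy (range −0.040 to 1.37). For the post-mortem tumour, the percentile of detected probes called 286 targets, normexp 214, and leaving out single arrays 0 to 431. MX1 there turned to 0.055 with detected probes, 0.10 with quantile normalisation, 0.10 with normexp and 0.048 with slide as a block, and OASL to 0.26 with that block. Apart from the causes named, the cause was not tested.

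No paired analysis by replicate number was possible because the labels number only the relapse aspirates. MalcolmX and Rosco gave both tissues, and with dog as a fixed block on these 4 arrays 0 targets passed limma (2158 had an unadjusted p under 0.05), and MX1, OAS2 and OASL differed by 1.77, 1.17 and 1.62. Scan day could not be fitted as a block, since each comparison lay within 1 day or had its groups on different days. The number of arrays and the few named probes limit what could be seen.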
